A study of Mus musculus with 18 samples.

Results

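Imprinted growth genes other than Igf2 were followed through the epithelium of embryonic mouse mammary buds: H19, Dlk1, Meg3, Peg3, Plagl1, Grb10, Mest, Ndn and Zim1. The set was defined by name, as the rows of the deposited count table that carry these 9 symbols. Of the 9 genes, 7 had a row among the 24376 genes of that table, and all 7 passed the filter on low counts that left 17269 genes. H19 (chromosome 7, 142575529 to 142578143, minus strand) and Meg3 (chromosome 12, 109541001 to 109571726, plus strand), both long non-coding RNAs, had no row and were not analysed here.

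The epithelium of mammary buds 1 to 3 was freed by Dispase II and Pancreatin-Trypsin and microdissected, and its RNA was sequenced with 2 to 3 embryos pooled per library. The 18 libraries fell into 4 groups. At the embryonic stage E13.5 (days after conception) there were 4 libraries from control embryos (Krt14wt/wt; Ctnnb1flox3/wt) and 4 from embryos with stabilized β-catenin (Krt14Cre/wt; Ctnnb1flox3/wt). At E16.5 there were 5 libraries of each genotype. All embryos, controls included, carried the Ctnnb1 allele with a floxed exon 3 on a mixed C57Bl/6 and NMRI background. Krt14Cre, active in the epithelium, deletes that exon from this allele, which leaves an allele of stable β-catenin beside a wild-type allele. The controls had no Cre, so an effect of Cre itself cannot be told apart from that of β-catenin. Embryos of both sexes were used at E13.5 and females alone at E16.5, so stage and sex makeup cannot be told apart. Litters are not assigned to libraries in the labels, and p-values measure the spread between these pools.

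An imprinted gene is transcribed mainly from the allele inherited from a single parent, and many imprinted genes act on the growth of the embryo and placenta. As background, Dlk1, Peg3, Plagl1, Mest and Ndn are expressed from the paternal allele in most embryonic tissues, and H19, Meg3, Zim1 and, outside the brain, Grb10 from the maternal allele. The counts sum both parental alleles, so nothing below says from which allele a transcript came. β-catenin is the effector of canonical Wnt signalling: when it is not degraded it enters the nucleus and binds Tcf/Lef factors at target genes, and this signalling is needed for mammary buds to form. Bulk libraries also cannot tell fewer cells of a type apart from less RNA per cell.

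Library totals ran from 26768810 to 36922108 counts. Epithelial markers (12 of 12 in the table) summed to between 3048 and 3684 CPM (counts relative to the library total, scaled by the TMM method) in controls of both stages, 3208 to 4385 CPM in E13.5 stabilized and 4834 to 8603 CPM in E16.5 stabilized libraries. The sum was thus higher in every stabilized than in every control library at E16.5, and its part in the E16.5 results was not tested. Erythroid markers summed to at most 17.2 CPM. Axin2, a target of β-catenin, averaged 312 (control) and 424 CPM (stabilized) at E13.5, and 27.9 and 255 CPM at E16.5. Axin2, Ctnnb1 and Lef1 were set as the check of the targeted pathway. By the call rule given below, 0 of these 3 were higher and 1 was lower at E13.5, so Axin2 did not pass as higher there. Beside this, 9.58% of all genes were called higher and 5.29% lower. At E16.5 all 3 were called higher, beside 22.2% of all genes. A pair of libraries stood apart. In E13.5 control replicate 3, 4.18% of counts were mitochondrial, against 2.18 to 2.50% in the other controls of that stage, and some mesenchymal genes were high and another low, as given beside Dlk1. In E16.5 stabilized replicate 4, 24.6% of counts fell on Gm10800 and similar predicted genes, against at most 0.958% elsewhere. Results that rest on either library are given with and without it.

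Positions are on GRCm38 (mm10), from GENCODE M21. Dlk1 lies on chromosome 12 at 109452823 to 109463336 (plus strand), Plagl1 on chromosome 10 at 13060504 to 13131694 (plus), Grb10 on chromosome 11 at 11930508 to 12038683 (minus) and Mest on chromosome 6 at 30723547 to 30748465 (plus). Chromosome 7 holds Ndn at 62346569 to 62350262 (plus), Peg3 at 6703892 to 6730431 (minus) and Zim1 at 6671269 to 6696450 (minus). Zim1 and Peg3 point the same way and are 7.44 kb apart, and Usp29, a further imprinted gene, starts 0.147 kb upstream of Peg3 on the other strand. The sequences upstream of Zim1, Peg3 and Dlk1 are shown because Zim1 and Dlk1 had the largest fold changes of the 7 genes and Peg3 is the neighbour of Zim1. Each is the 250 bases before the annotated start, from RefSeq (GRCm38.p6), written 5′ to 3′ on the gene's strand.
Zim1, chr7:6696433-6696682, minus strand: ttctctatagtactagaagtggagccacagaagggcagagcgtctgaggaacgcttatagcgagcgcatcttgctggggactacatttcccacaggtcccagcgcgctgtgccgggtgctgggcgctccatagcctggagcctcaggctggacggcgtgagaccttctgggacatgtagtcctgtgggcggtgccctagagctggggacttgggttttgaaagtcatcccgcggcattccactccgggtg
Peg3, chr7:6730420-6730669, minus strand: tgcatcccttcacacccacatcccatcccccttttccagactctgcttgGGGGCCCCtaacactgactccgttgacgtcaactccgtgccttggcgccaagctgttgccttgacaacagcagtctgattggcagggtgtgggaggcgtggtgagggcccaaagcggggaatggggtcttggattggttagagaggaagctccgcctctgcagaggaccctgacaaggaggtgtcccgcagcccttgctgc
Dlk1, chr12:109452573-109452822, plus strand: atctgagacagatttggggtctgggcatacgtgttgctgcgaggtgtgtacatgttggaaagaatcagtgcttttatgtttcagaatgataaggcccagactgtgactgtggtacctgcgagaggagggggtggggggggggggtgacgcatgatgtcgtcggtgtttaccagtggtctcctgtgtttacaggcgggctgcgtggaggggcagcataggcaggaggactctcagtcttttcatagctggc
The capitals in the Peg3 sequence mark GGGGCCCC, the core of the site bound by the zinc-finger protein Plagl1. Over windows from 250 bases before to 50 bases after the start, GGGGCCCC was present in 1.08% of 32851 RefSeq windows and in 1 of the 12 windows of these genes (8 of the 9 genes had a window), that of Peg3. The Tcf/Lef core CTTTGAT, searched like the other motif on both strands, was present in 3.73% of all windows and in 0 of the 12. These are letter matches only, and their absence from a window bears on no other sequence. Over the same windows Zim1 held 20 CpG dinucleotides, Peg3 13 and Dlk1 9, against a median of 7 over all windows.

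**Figure D1:**
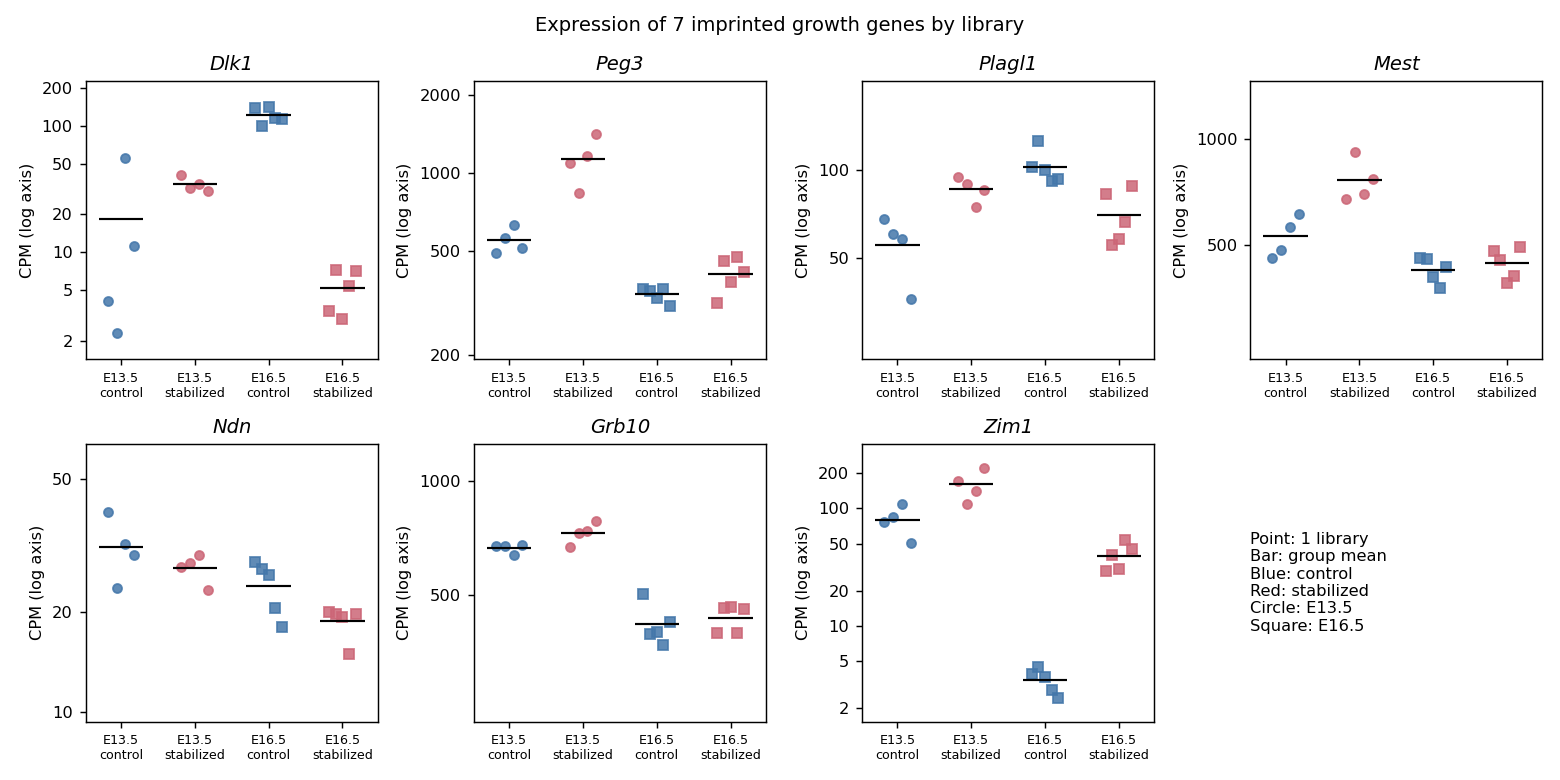
Expression of the 7 genes in each library, in CPM on a log axis, with a bar at the group mean (blue, control; red, stabilized; circles, E13.5; squares, E16.5). Zim1 lay between 2.46 and 4.53 CPM in the E16.5 controls and between 29.3 and 53.6 CPM in the E16.5 stabilized libraries, and Dlk1 between 99.98 and 142 CPM and between 2.96 and 7.26 CPM.

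The first comparison asked what stabilized β-catenin changes at E13.5, the bud stage. Peg3 was 2.05-fold and Zim1 2.00-fold higher in stabilized than in control buds, and Plagl1 and Mest rose by 1.54-fold and 1.45-fold. Dlk1, Grb10 and Ndn did not pass the test. The call rule was an adjusted p under 0.05 in edgeR's quasi-likelihood test, adjusted over all 17269 genes, and it passed 14.9% of all genes at E13.5. Of the 7 genes, 4 passed, all higher in stabilized buds, against 9.58% of all genes called higher and 5.29% called lower. The median log2 fold change of the 7 was 0.63, and that of all genes 0.01. With only the E13.5 libraries in the fit, 2 of the 7 passed (Peg3 and Zim1), and with the authors' deposited scaling factors as offsets again 2 (Peg3 and Plagl1).

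At E16.5, when the bud sprouts, 2 of the genes called at E13.5, Zim1 and Plagl1, were called again, Plagl1 in the other direction, together with Dlk1. Zim1 was 11.3-fold higher and Dlk1 23.3-fold lower in stabilized than in control epithelium, and Plagl1 was 1.46-fold lower. Mest, Grb10, Peg3 and Ndn did not pass the test. The count called, 3 of 7 (1 higher, 2 lower), stands beside 41.7% of all genes (22.2% higher, 19.4% lower), so it is no result about the set, and 3 of 7 with ranges that did not overlap stand beside 36.3% of all genes. Their median log2 fold change was 0.06, against 0.10 for all genes.

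**Figure D2:**
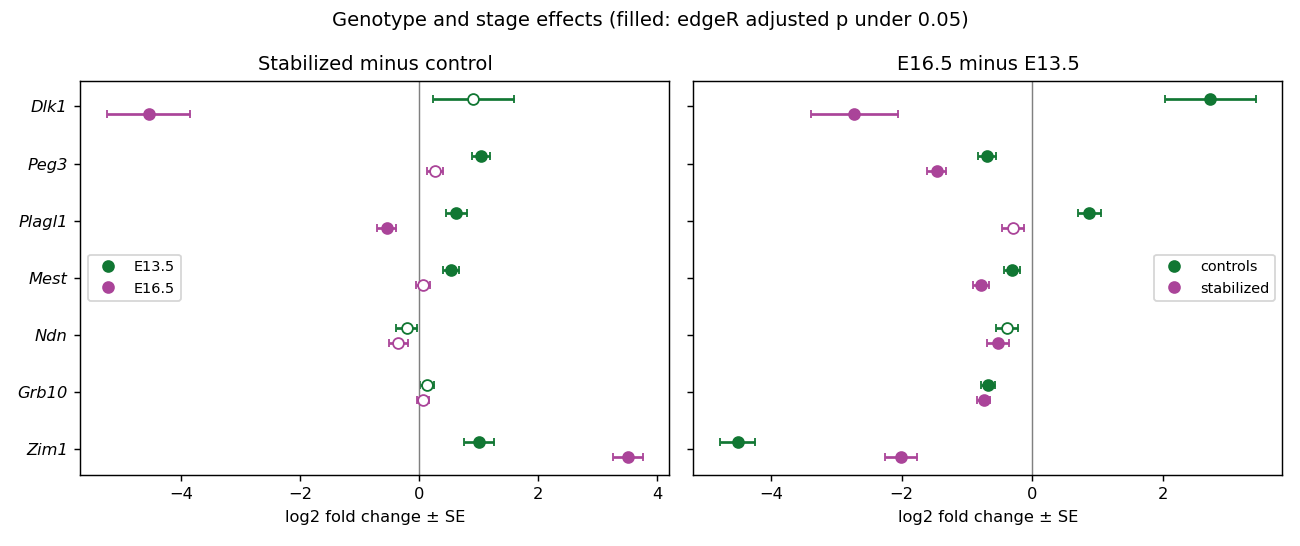
Log2 fold changes with standard errors from edgeR for each gene: left, stabilized minus control at E13.5 (green) and E16.5 (purple); right, E16.5 minus E13.5 in controls (green) and stabilized libraries (purple). Filled points have an adjusted p under 0.05. Dlk1 at E16.5 (-4.54) and Zim1 at E16.5 (3.50) lie farthest from 0 on the left, and on the right the stage effect of Dlk1 has opposite signs in controls (2.73) and stabilized libraries (-2.73).

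Between the stages, most of the set was lower at E16.5. In controls Zim1 was 22.8-fold lower at E16.5 than at E13.5, Peg3 1.62-fold, Grb10 1.59-fold and Mest 1.25-fold lower, while Dlk1 rose 6.63-fold and Plagl1 1.84-fold. In controls 6 of 7 passed (2 higher, 4 lower), beside 47.5% of all genes (24.9% higher, 22.6% lower). In stabilized epithelium 6 of 7 passed, all lower at E16.5 (Mest not with the deposited factors, as given with its values), beside 28.0% of all genes called in either direction and 11.5% called lower. The median log2 fold changes of the 7 were -0.38 in controls and -0.78 in stabilized epithelium, against -0.03 and 0.00 for all genes. Scaled by library totals alone, the median of all genes moved to -0.27 in both stage comparisons, and the calls over all genes from 4297 higher and 3909 lower to 3084 and 5155 in controls, and from 2852 and 1990 to 1881 and 3965 in stabilized epithelium. The interaction, which tests whether the genotype effect differs between the stages, passed for 5 of 7 (Zim1 upward; Dlk1, Plagl1, Peg3 and Mest downward), beside 32.2% of all genes (15.6% upward, 16.6% downward).

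Dlk1 (ENSMUSG00000040856) encodes a transmembrane protein with epidermal growth factor repeats, related to Notch ligands, that can be shed as a soluble protein and is known for restraining adipocyte differentiation. Its 4 E13.5 controls held 4.14, 2.29, 56.2 and 11.3 CPM (replicates 1 to 4), and the stabilized libraries 41.0, 32.2, 35.0 and 30.6 CPM. Control replicate 3 lay above all stabilized libraries and the other 3 controls below all of them. The log2 fold change at E13.5 was 0.91 ± 0.68 (SE, edgeR adjusted p = 0.458), and without that library it was 2.56 ± 0.44 (edgeR adjusted p = 0.00065). Dlk1 was thus not called at E13.5 with that library and called without it. At E16.5 the controls held 139, 99.98, 142, 117 and 114 CPM and the stabilized libraries 3.41, 7.26, 2.96, 5.46 and 7.09 CPM. These groups were far apart, with every control above every stabilized library. The E16.5 log2 fold change was -4.54 ± 0.70 (edgeR adjusted p = 7.67e-05). The interaction was -5.45 ± 0.97 (edgeR adjusted p = 0.000469), and -7.10 without E13.5 control replicate 3. The E13.5 controls averaged 18.5 ± 25.4 CPM (SD, n = 4). The rise with stage in controls, 2.73 ± 0.70 on the log2 scale, was 4.38 ± 0.47 without that library.

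Markers listed for other cells moved with Dlk1 in places, and their part in the result was not tested. In E13.5 control replicate 3 the 19 mesenchyme markers (19 of 19 in the table) summed to 1542 CPM, against 1005 to 1310 CPM in the other controls. Among them, chosen after their values were seen, Pdgfra stood at 76.7 CPM against 4.22 to 26.0 CPM in the other controls, and Col1a2 at 149 against 8.06 to 42.0 CPM. The markers Fn1 and Col3a1, also chosen after their values were seen, did not follow Dlk1. Fn1 was lower in that library (148 CPM against 422 to 476 CPM), and Col3a1 was high there (106 CPM) and also in control replicate 4 (86.2 CPM), where Dlk1 was 11.3 CPM. In the 4 E13.5 stabilized libraries Dlk1 was 30.6 to 41.0 CPM while Pdgfra was 10.7 to 21.3 CPM. The summed mesenchyme markers ranged from 1005 to 1542 CPM and from 1453 to 1589 CPM in E13.5 control and stabilized libraries, and from 1185 to 1711 CPM and from 1521 to 1933 CPM at E16.5. Tcf21 was at 0 in both E16.5 groups, and Dpt and Tcf21 in the E13.5 controls. At E16.5 single markers went different ways: of 18 tested, 4 were called higher and 3 lower in stabilized epithelium, beside 22.2% and 19.4% of all genes. Pdgfra fell with Dlk1 (48.1 to 16.9 CPM, -1.51 on the log2 scale with an edgeR adjusted p = 0.0455). So did Vim (575 to 175 CPM, -1.72, edgeR adjusted p = 9.46e-08). Vim was lower in stabilized libraries at E13.5 too (172 to 221 CPM against 393 to 553 CPM in controls), where Dlk1 was not. Col1a2 was higher in stabilized epithelium, at 84.4 to 161 CPM against 11.5 to 64.9 CPM. The neural crest and Schwann cell markers (8 of 8 in the table) summed to 136 to 191 CPM in E13.5 controls and 313 to 350 CPM in E13.5 stabilized libraries, with Tubb3 at a mean of 8.32 against 183 CPM and Foxd3 at 0 in the controls. At E16.5 this sum was 874 to 990 CPM in controls and 217 to 330 CPM in stabilized libraries, and most of it in controls was Sox10 (554 against 29.6 CPM) and Erbb3 (360 against 160 CPM). Bulk libraries do not show which cells, epithelial or other, held these transcripts, so the sum is no measure of neural crest or Schwann cells. The sum was thus apart between genotypes at both stages, in opposite directions, but the genes named for it differed: Tubb3 at E13.5, and Sox10 and Erbb3 at E16.5. With stage the sum rose in controls, and at E16.5 it was lower in every stabilized than in every control library. Both Plagl1 and Dlk1 were like it in these respects. At E13.5 Plagl1 was also higher in every stabilized library, as the sum was, while the Dlk1 genotypes were not apart. Melanocyte markers (6 of 6 in the table) summed to 21.2 to 25.3 CPM in E13.5 controls, 99.9 to 167 CPM in E16.5 controls and 166 to 255 CPM in E16.5 stabilized libraries, with Tyrp1 and Mlana at 0 in the E13.5 controls. Immune markers (10 of 10 in the table) summed to 4.11 to 7.10, 23.2 to 30.6 and 12.5 to 20.6 CPM in the same 3 groups, with Tyrobp, C1qa and Adgre1 at 0 in the E13.5 controls.

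Grb10 (ENSMUSG00000020176) encodes an adaptor that binds activated insulin and insulin-like growth factor receptors and dampens their signal, and loss of its maternal copy gives large embryos. E13.5 controls held 674, 673, 637 and 677 CPM and stabilized libraries 669, 727, 738 and 785 CPM. At E16.5 the controls held 503, 394, 398, 369 and 424 CPM and the stabilized libraries 396, 462, 463, 396 and 459 CPM. The genotypes overlapped at both stages, and every E13.5 library was above every E16.5 library. The genotype effect was 0.13 ± 0.11 on the log2 scale at E13.5 (edgeR adjusted p = 0.524) and 0.06 ± 0.10 at E16.5 (edgeR adjusted p = 0.669). The fall with stage was -0.67 ± 0.11 in controls (edgeR adjusted p = 3.35e-05) and -0.75 ± 0.11 in stabilized epithelium (edgeR adjusted p = 2.97e-05). The interaction was -0.07 ± 0.15 (edgeR adjusted p = 0.764), so no difference between the stage effects was detected.

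Plagl1 (ENSMUSG00000019817, also known as Zac1) encodes a zinc-finger transcription factor with antiproliferative activity that acts on other imprinted genes, among them Igf2, H19 and Dlk1. E13.5 controls held 67.7, 60.4, 58.0 and 36.3 CPM and stabilized libraries 94.2, 89.2, 74.6 and 85.3 CPM. At E16.5 the order turned, with 102, 125, 99.5, 91.3 and 93.0 CPM in controls and 82.3, 55.6, 57.9, 66.3 and 88.2 CPM in stabilized libraries. The genotypes did not overlap at either stage: stabilized was the higher group at E13.5 and the lower at E16.5. The log2 fold changes were 0.63 ± 0.18 (edgeR adjusted p = 0.0215) and -0.54 ± 0.16 (edgeR adjusted p = 0.00975), and the interaction was -1.17 ± 0.24 (edgeR adjusted p = 0.00087). The E13.5 call was lost without control replicate 4, the lowest library (edgeR adjusted p = 0.0716), without stabilized replicate 1 (0.0618), with library totals alone (0.0517) or with only the E13.5 libraries fitted (0.0611), and the E16.5 call with the deposited factors (0.0524). In controls the log2 change of Plagl1 with stage was 0.88 ± 0.17 (edgeR adjusted p = 0.000328), while in stabilized epithelium the change was -0.29 ± 0.17 (edgeR adjusted p = 0.217), which passed only with library totals alone or the deposited factors.

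Peg3 (ENSMUSG00000002265) encodes a large zinc-finger protein known for effects on growth and maternal behaviour. E13.5 controls held 493, 564, 631 and 517 CPM and stabilized libraries 1094, 842, 1165 and 1414 CPM. At E16.5 the controls held 357, 351, 330, 359 and 308 CPM and the stabilized libraries 317, 457, 381, 476 and 416 CPM. The genotypes were apart at E13.5 and overlapped at E16.5. The log2 fold change was 1.03 ± 0.15 at E13.5 (edgeR adjusted p = 7.2e-05) and 0.26 ± 0.14 at E16.5 (edgeR adjusted p = 0.129), and the interaction was -0.77 ± 0.20 (edgeR adjusted p = 0.00637). Peg3 was lower at the later stage in both genotypes, by -0.69 ± 0.14 on the log2 scale in controls and -1.46 ± 0.14 in stabilized epithelium.

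Zim1 (ENSMUSG00000002266), a zinc-finger gene next to Peg3, had the steepest fall of the 7 genes with stage in controls. E13.5 controls held 76.3, 84.3, 109 and 50.4 CPM and stabilized libraries 169, 110, 140 and 221 CPM. At E16.5 the controls held 3.94, 4.53, 3.68, 2.88 and 2.46 CPM and the stabilized libraries 29.3, 40.5, 30.2, 53.6 and 44.7 CPM. The genotypes were apart at both stages, narrowly at E13.5, and the highest E16.5 stabilized library lay above the lowest E13.5 control. The log2 fold changes were 1.00 ± 0.25 at E13.5 (edgeR adjusted p = 0.0102) and 3.50 ± 0.25 at E16.5 (edgeR adjusted p = 2.82e-09), with an interaction of 2.50 ± 0.35 (edgeR adjusted p = 1.97e-05). The fall with stage was -4.51 ± 0.27 in controls (edgeR adjusted p = 1.8e-10) and -2.01 ± 0.24 in stabilized epithelium (edgeR adjusted p = 5.16e-06). With the deposited scaling factors as offsets the E13.5 effect was 1.18 (edgeR adjusted p = 0.0659) and did not pass.

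Mest (ENSMUSG00000051855, also known as Peg1) encodes a membrane protein of the α/β-hydrolase fold and is named for its expression in mesoderm. E13.5 controls held 458, 483, 560 and 613 CPM and stabilized libraries 674, 917, 700 and 768 CPM. At E16.5 the controls held 458, 454, 403, 377 and 430 CPM and the stabilized libraries 479, 452, 390, 407 and 493 CPM. Only the E13.5 genotypes were apart. The log2 fold change was 0.53 ± 0.13 at E13.5 (edgeR adjusted p = 0.00745) and 0.07 ± 0.12 at E16.5 (edgeR adjusted p = 0.684). The interaction, -0.47 ± 0.17, passed narrowly (edgeR adjusted p = 0.0464), and 20 of 26 alternatives lost its call or turned its sign, among them leaving out any of 14 libraries (all but E13.5 control replicates 3 and 4 and E13.5 stabilized replicates 1 and 3). The fall with stage in controls, -0.32 ± 0.12 (edgeR adjusted p = 0.0401), lost its call in 12 of 27 alternatives, 7 of them with a library left out (E13.5 control replicate 3 or 4, E13.5 stabilized replicate 4, E16.5 control replicate 3, 4 or 5, or E16.5 stabilized replicate 4). The E13.5 effect did not pass with the deposited factors (edgeR adjusted p = 0.189). The deposited normalized values scale counts by factors specific to gene and library, and not for Mest alone. Relative to the library's median gene the factor of Mest was 1.18 ± 0.03 (SD, n = 5) in E16.5 controls and between 0.449 and 1.15 in E16.5 stabilized libraries. That of Zim1 ranged more widely, from 0.370 to 1.75 in E16.5 controls, and that of Ndn stayed near 1. With these factors as offsets Mest was higher in stabilized epithelium at E16.5 (0.89, edgeR adjusted p = 0.00225), the interaction was 0.39 (edgeR adjusted p = 0.405), and the fall with stage in stabilized epithelium, -0.78 ± 0.12 (edgeR adjusted p = 8.11e-05), became -0.0094 (edgeR adjusted p = 0.985). These 3 values thus depend on which deposited scale is used. The end of Mest overlaps Copg2 on the opposite strand, and since the use of strand in counting is not given in the sources used here, reads of the overlap cannot be told apart. Copg2 differed by 0.07 at E13.5 and rose at E16.5 by a log2 fold change of 0.59 (edgeR adjusted p = 0.0062).

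Ndn (ENSMUSG00000033585) encodes necdin, a MAGE-family protein that restrains proliferation and is abundant in neurons. E13.5 controls held 39.8, 23.6, 31.9 and 29.6 CPM and stabilized libraries 27.2, 28.0, 29.6 and 23.3 CPM. At E16.5 the controls held 28.3, 26.9, 25.9, 20.5 and 18.1 CPM and the stabilized libraries 19.9, 19.8, 19.3, 15.0 and 19.7 CPM. The genotypes overlapped at both stages. The log2 fold change was -0.21 ± 0.18 at E13.5 (edgeR adjusted p = 0.521) and -0.35 ± 0.16 at E16.5 (edgeR adjusted p = 0.0797), and the latter passed without E16.5 control replicate 5 (edgeR adjusted p = 0.034) or with library totals alone (0.0438). Ndn fell with stage in stabilized epithelium (-0.53 ± 0.17, edgeR adjusted p = 0.0216), a call lost without E13.5 stabilized replicate 2 or 3 or E16.5 stabilized replicate 4. In controls the change was -0.38 ± 0.17 (edgeR adjusted p = 0.0626), which passed in 5 of 27 alternatives, among them without E13.5 control replicate 2 or E16.5 control replicate 1.

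Per kilobase of exon, which allows levels of different genes to be set side by side, the E13.5 controls ordered as Mest (134 ± 18.1 CPM per kb, SD, n = 4), Grb10 (73.2 ± 2.07), Peg3 (41.4 ± 4.57), Zim1 (9.90 ± 3.00), Ndn (8.46 ± 1.82), Plagl1 (7.11 ± 1.73) and Dlk1 (3.27 ± 4.50). Mest, Grb10 and Peg3 were clear of each other, while the 4 lower genes did not differ beyond their spread. Without E13.5 control replicate 3, Dlk1 was at 1.04 ± 0.84 CPM per kb (SD, n = 3) and its highest control (2.00) lay below every remaining control of Plagl1 (lowest 4.65), Zim1 (lowest 6.23) and Ndn. In E13.5 stabilized libraries Mest (194 ± 27.6 CPM per kb, SD, n = 4) was followed by Peg3 (84.7 ± 17.7), Grb10 (80.3 ± 5.27), Zim1 (19.8 ± 5.84), Plagl1 (10.98 ± 1.06), Ndn (7.32 ± 0.72) and Dlk1 (6.14 ± 0.81). There Peg3 and Grb10 did not differ beyond their spread, nor did Ndn and Dlk1. In E16.5 controls Mest, Grb10 and Peg3 were at 108 ± 8.68, 45.9 ± 5.69 and 25.6 ± 1.63 CPM per kb (SD, n = 5), Dlk1 at 21.6 ± 3.2, Plagl1 at 13.1 ± 1.72, Ndn at 6.48 ± 1.19 and Zim1 at 0.43 ± 0.10. In E16.5 stabilized libraries the same first 3 were at 113 ± 11.3, 47.9 ± 3.95 and 30.7 ± 4.78 CPM per kb, Plagl1 at 8.96 ± 1.86, Ndn at 5.07 ± 0.57, Zim1 at 4.91 ± 1.26 and Dlk1 at 0.93 ± 0.35. Dlk1 thus stood above Plagl1, Ndn and Zim1 in E16.5 controls and had the lowest mean in the other groups, and Ndn and Zim1 did not differ beyond their spread in E16.5 stabilized libraries.

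The Peg3 region was then examined gene by gene. Usp29, which encodes a ubiquitin-specific peptidase family member and lies head to head with Peg3, moved with it: its mean rose from 26.5 to 43.5 CPM at E13.5 (0.72 in log2, edgeR adjusted p = 0.0138) and its log2 fold change at E16.5 was 0.44 (edgeR adjusted p = 0.0481). With stage, Usp29 fell by 1.16 on the log2 scale in controls and by 1.44 in stabilized epithelium. Of the 15 other tested genes within 500 kb of Peg3, none in the imprinted lists, 1 was lower in stabilized buds at E13.5 (Zfp28, -1.24) and 0 were higher, and at E16.5 1 was higher (Olfr1336, 1.21) and 1 lower (Zfp28, -0.77). With stage in controls, 6 of these 15 genes were lower and 0 higher, with a median log2 fold change of -0.94. In stabilized epithelium 2 were lower with stage and 0 higher, with a median of -0.02. A fall with stage in controls was thus not confined to Peg3, Zim1 and Usp29. Zim1 did not keep a fixed ratio to its neighbour Peg3. Per kilobase, Zim1 was 23.7 ± 5.34% of Peg3 in E13.5 controls, 23.1 ± 2.93% in E13.5 stabilized libraries (SD, n = 4), 1.68 ± 0.35% in E16.5 controls and 15.8 ± 2.25% in E16.5 stabilized libraries (SD, n = 5). The ratio was thus much alike in both E13.5 groups and lowest in the E16.5 controls.

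Neighbours of the other genes were measured too. Beside Dlk1, Begain fell at E16.5 (-1.74, edgeR adjusted p = 0.00203) and the imprinted Rtl1 had a mean of 0.697 CPM with no call in either genotype comparison. Near Ndn, the paternally expressed Mkrn3 (-1.13, edgeR adjusted p = 0.019) and Peg12 (-2.24, edgeR adjusted p = 7.96e-05) fell at E16.5, where Ndn itself was at -0.35. Klf14, a maternally expressed gene near Mest, was 3.69 higher on the log2 scale in stabilized epithelium at E16.5 (edgeR adjusted p = 0.00696), from a mean of 1.55 CPM over all libraries. Igf2, the fetal growth factor next to H19, rose from 500.2 to 1674 CPM at E13.5 (log2 fold change 1.74) and from 312 to 1759 CPM at E16.5 (2.50).

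Other imprinted genes, in lists set by their textbook parental origin, moved in both directions. Of 18 tested genes (21 listed, Igf2 among them) that are paternally expressed, 4 were higher and 1 lower in stabilized buds at E13.5 (median log2 fold change 0.39, all genes 0.01), and 5 were higher and 4 lower at E16.5 (0.25, all genes 0.10). The amino acid transporter Slc38a4 rose at both stages, from 35.6 to 128 CPM (1.85) and from 36.3 to 228 CPM (2.65). Zdbf2 rose at E13.5 (28.8 to 59.8 CPM, 1.06) and fell at E16.5 (-0.96). The neighbouring genes Peg10 (5.41 to 38.2 CPM, 2.82) and Sgce (3.13 to 15.1 CPM, 2.27) rose at E16.5. Of 16 tested genes (21 listed) that are maternally expressed, 0 were higher and 1 lower at E13.5 (median -0.03), and 6 were higher and 5 lower at E16.5 (median -0.07). The E13.5 gene was the transporter Slc22a18 (5.47 to 1.17 CPM, -2.22). At E16.5 Cdkn1c, which encodes the cyclin-dependent kinase inhibitor p57, rose from 50.5 to 199 CPM (1.98), and Igf2r, which encodes the receptor that clears Igf2, fell from 544 to 318 CPM (-0.77). Osbpl5 rose by 1.12 and Nap1l4 fell by 0.73 on the log2 scale. Each of these calls had an edgeR adjusted p under the threshold, and all were among the 14.9% and 41.7% of genes called at the respective stages.

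**Figure D3:**
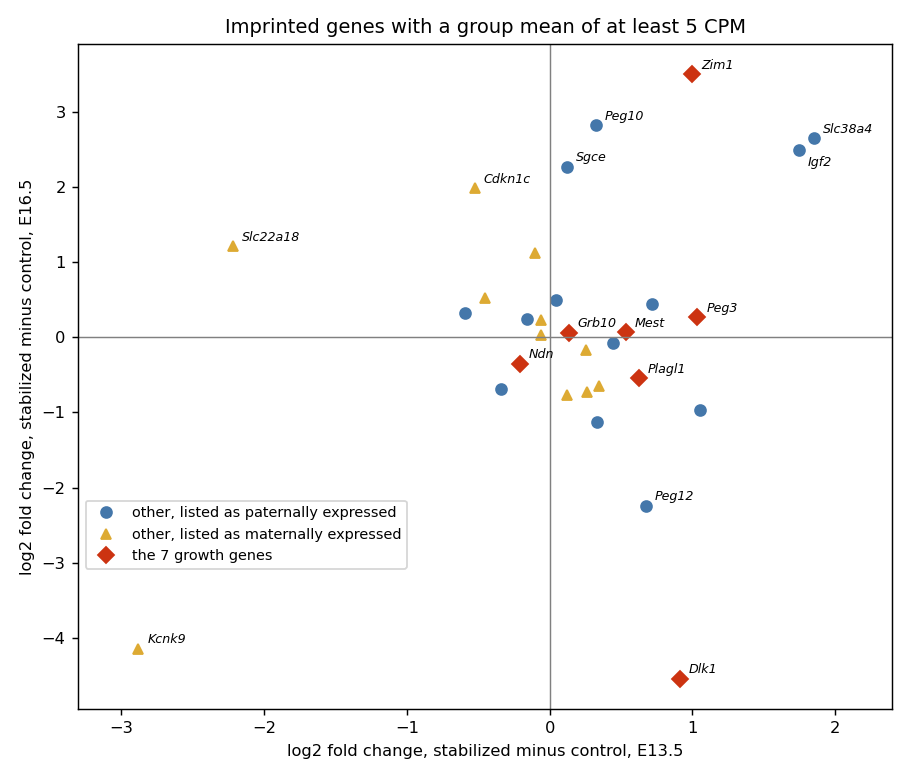
Log2 fold change (stabilized minus control) at E13.5 on the x axis and at E16.5 on the y axis, for imprinted genes with a mean of at least 5 CPM in some group: the 7 growth genes (red diamonds), other genes listed as paternally expressed (blue circles) and as maternally expressed (yellow triangles). Slc38a4, Igf2 and Zim1 lie in the upper right, and Dlk1, at 0.91 and -4.54, lies far below the other 6 growth genes.

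Profiles over the 18 libraries were compared by the root mean square difference of log2 CPM, each gene centred on its mean, against 12585 other genes. This is a description, and the libraries share their groups, so genes with the same group pattern lie close. The genes nearest to Zim1 were Dpp6 (0.55), which encodes a potassium channel subunit, Rgs9 (0.60), a regulator of G-protein signalling, and Susd4 (0.61). Rgs9 had means of 45.1 ± 11.6, 85.2 ± 14.1, 3.23 ± 0.89 and 41.1 ± 7.62 CPM in E13.5 control, E13.5 stabilized, E16.5 control and E16.5 stabilized libraries, where Zim1 had 80.1 ± 24.3, 160 ± 47.3, 3.50 ± 0.83 and 39.7 ± 10.2 CPM (SD, n = 4, 4, 5 and 5). Both were lowest in the E16.5 controls. The profiles nearest to Dlk1, Adgrg3 (1.03), 1700019D03Rik (1.08) and Loxl3 (1.14), lay farther off, and all 3 were highest in the E16.5 controls, with Adgrg3 at 22.6 ± 5.41 CPM there against 2.04 ± 1.06 CPM in E16.5 stabilized libraries. Dlk1 and Zim1 differed from each other by 3.65, the largest difference between any 2 of the 7 genes, and Grb10 and Mest by 0.22, the smallest. This measure also depends on how much each gene varies, so the order is not one of pattern alone. The profile SD was 2.11 for Dlk1 and 2.18 for Zim1, against 0.35 to 0.68 for the rest of the 7. Outside the set, 41 genes lay nearer to Grb10 than Mest did, and 6 nearer to Mest than Grb10 did.

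**Figure D4:**
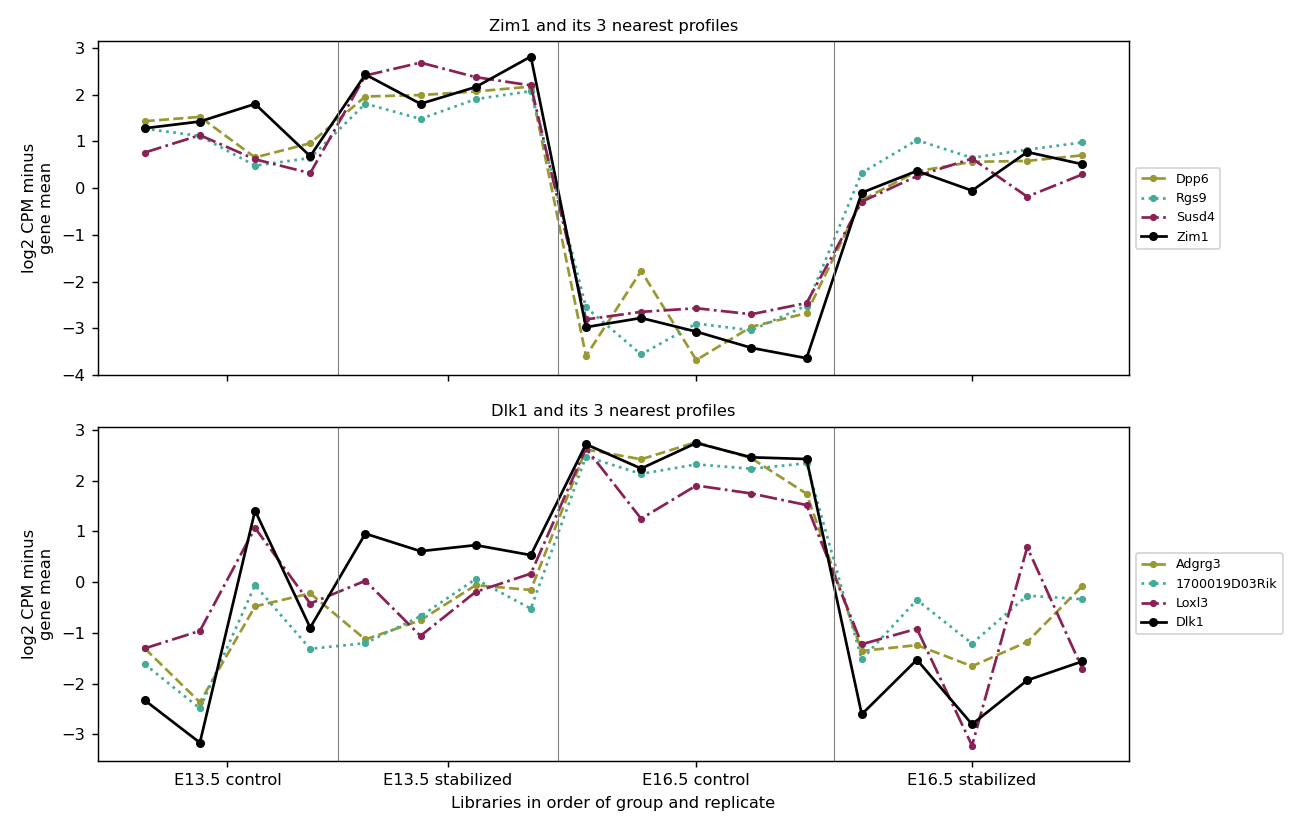
Centred log2 CPM of Zim1 (top) and Dlk1 (bottom) in black with the 3 nearest profiles of each, over the 18 libraries in order of group and replicate; vertical lines part the groups. Zim1 and its 3 nearest genes are lowest in the 5 E16.5 controls, and Dlk1 and its 3 nearest genes are highest there.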

How the data were processed

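RNA-seq of mammary bud epithelium gave 18 libraries in 4 groups. The deposited table of estimated counts per gene held whole numbers and was used as it stood. Salmon 0.99.0, Trimmomatic 0.39, FastQC 0.11.8, MultiQC 1.9, DESeq2 3.15 (the form of a Bioconductor release) and mm10 are named, per the submitters' processing notes. A second deposited table holds a normalized signal (the counts over factors specific to gene and library) and served only as offsets in an alternative. Strand use and annotation: not given in the sources used here.

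From the counts, edgeR 4.0.16 (R 4.3.3) kept 17269 genes by filterByExpr (minimum count 10), scaled by TMM and fitted all libraries together by robust quasi-likelihood, each group with its own mean (common dispersion 0.250). The Benjamini-Hochberg adjustment covered all genes tested, with a threshold of 0.05. Log2 CPM used a prior count of 2. Fits were tested on simulated counts with a dispersion below the common dispersion above, so that test gives no error rate for the real data. Alternatives included DESeq2 1.42.0, other scalings, no filter, the deposited factors, a replicate block and each library left out. All 9 genes were named in every comparison, with up to 4 other imprinted genes per list and genotype comparison by adjusted p, those within 500 kb of the set, and the 3 nearest profiles of genes whose own profile had an SD of at least 1. The genes and lists were chosen with earlier results of these data known.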

Additional observations from a re-analysis of the deposited data

Results flagged for a closer look

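In 28 groups of library values checked for a single library far from the rest (chance marks about 1 in 20), 3 were marked. Dlk1 in E13.5 control replicate 3 was far above the other controls, at 56.2 CPM, and Grb10 in the same library was below them, at 637 CPM. Ndn in E16.5 stabilized replicate 4, the library with 24.6% of counts on Gm10800 and similar genes, was below its group at 15.0 CPM.

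The genotype effect differed between stages in the interaction test of edgeR for 5 genes. It was -5.45 on the log2 scale for Dlk1 (adjusted p = 0.000469), -0.77 for Peg3 (0.00637), -1.17 for Plagl1 (0.00087), -0.47 for Mest (0.0464) and 2.50 for Zim1 (1.97e-05).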

How the results depend on the processing

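Each result was recomputed under 27 alternatives (26 for the interaction). For single genes 878 values kept direction and side of the threshold, 44 lost the call, 12 gained it and 4 changed sign. At E13.5 the genes called fell from 2569 to 1709 with the deposited factors as offsets and to 1651 with only the groups compared in the fit, and in both the 7 genes gave 2 calls in place of 4. The sign changes were Grb10 (-0.031) and Mest (-0.035) at E16.5 with library totals alone, the Grb10 interaction without E16.5 control replicate 1 (0.023; range with each library left out -0.11 to 0.023) and the Mest interaction with the deposited offsets (0.39). The cause was not tested. Leaving out each library gave 1920 to 3035 genes called at E13.5 and 6434 to 7771 at E16.5, 7407 to 8362 and 3960 to 5479 for stage in controls and stabilized libraries, and 4942 to 6094 for the interaction. Of the 7 genes 3 to 5, 3 to 4, 5 to 7, 5 to 6 and 4 to 5 were then called. Without both libraries that stood apart, an alternative chosen after seeing the data as was leaving out the Gm10800-like genes, Dlk1 at E13.5 was 2.56 (edgeR adjusted p = 0.00114).

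Same-numbered libraries did not deviate together (correlations from -0.0995 to 0.172), so the numbers were not taken as pairs. With the replicate block the genes called were 2218, 6779, 7571, 4391 and 5040 in the same order, and 3, 3, 5, 6 and 4 of the 7; Zim1 at E13.5 did not pass (edgeR adjusted p = 0.0668). The 4 to 5 pools per group limit the precision, as does the low level of Zim1 in E16.5 controls.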
